A study of Mus musculus with 4 samples.

Results

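Spectrins, ankyrins and the adhesion molecules they hold were examined in Purkinje cells, which carry the output of the cerebellar cortex and release GABA. The 8 genes were the spectrin genes Sptan1, Sptbn1 and Sptbn4, the ankyrin genes Ank1, Ank2 and Ank3, and the adhesion genes Nfasc and Nrcam. Every array probe set annotated with exactly 1 of these symbols was taken, whatever its signal, which gave 32 of 45101 probe sets. All 4 samples form a single group and came from 2 intact male C57BL/6J mice aged 8 weeks, with 2 samples per mouse and no treatment named in the labels. Samples 1-1 and 1-2 are from animal 1, and samples 2-1 and 2-2 from animal 2. The cells were cut by laser from frozen, fixed sections of cerebellum, and their RNA was amplified from about a nanogram and hybridized to Affymetrix expression arrays. The labels do not say whether the samples of an animal were separate captures, so p-values between the animals reflect no more than the scatter of these 4 samples. The sources used here do not say by what stain or shape the cells were picked.

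Spectrins are long rods made of alpha and beta subunits. They cross-link short actin filaments into a lattice under the cell membrane, and ankyrins tie that lattice to membrane proteins through a stretch of repeats that gives them their name. In neurons the initial segment of the axon, where action potentials start, is built on ankyrin-G and beta-IV spectrin, which hold sodium and potassium channels and the adhesion molecules neurofascin and NrCAM in place. Basket cell axons form a dense plexus, the pinceau, around this segment of Purkinje cells.

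In these captures 7 of the 8 genes gave a signal above background on all 4 arrays with at least 1 probe set, and Sptbn4 did so on 1 array only. Each array had its own background bound, set at the 95th percentile of a list of genes used mainly outside the brain, and it lay between 5.62 and 5.90 on the normalized log2 scale. Of the 32 probe sets, 13 (40.6%) passed the bound on all 4 arrays, 17 passed on no array, and 2 passed on some. Over all probe sets on the array that are not controls, 17.5% lay above it on all 4 arrays, and over all named genes, taken by their brightest probe set, 28.4% did. The 4 probe sets lost with the bound at the 99th percentile were both of Ank2 and both of Nfasc that had passed, which left 9. Over all probe sets that are not controls, 5390 passed at that bound, against 7882 at the 95th percentile. Signals are given first as deposited, on a linear scale that was not equal between arrays, in the order of samples 1-1, 1-2, 2-1 and 2-2. A level is a quantile-normalized log2 signal, written as the mean of 2 animals ± their SD. Probe sets vary in how they respond to the same amount of RNA, so the level of 1 gene is not ranked against that of another.

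**Figure D1:**
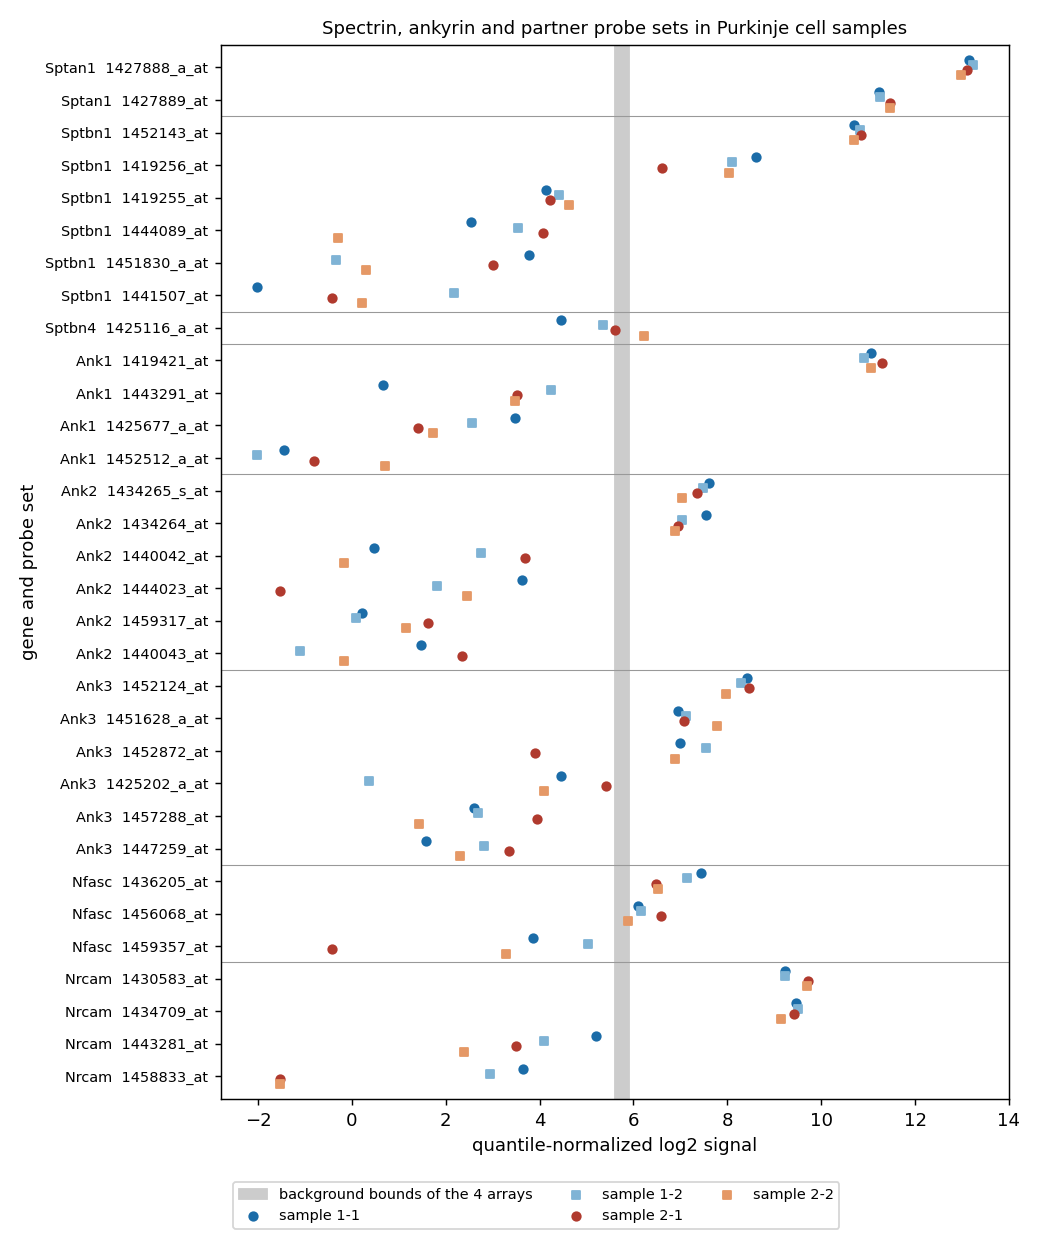
Normalized log2 signal (horizontal axis) of the 32 probe sets of the 8 genes (vertical axis), with 1 point per sample, shifted vertically within a row so that points can be told apart. The grey band spans the bounds of the 4 arrays; 13 probe sets have all 4 points above their bounds, and 17 have none.

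Sptan1, which encodes alpha-II spectrin, the alpha subunit of most cells other than red blood cells, was the only one of the 8 genes with all of its several probe sets above the bound on every array. On 1427888_a_at its deposited signals were 7592.3, 8088.2, 9944.8 and 9950. As deposited, both samples of animal 2 were above both of animal 1, whereas after normalization the samples of animal 2 lay below those of animal 1, at a level of 13.12 ± 0.10 (SD, n = 2 animals). On 1427889_at the signals were 2046, 2111.9, 3001 and 3570.7, and the level was 11.35 ± 0.16. On this probe set animal 2 stayed above animal 1 on both scales. The annotation lists 1 sequence record for both probe sets, and after normalization they stood on opposite sides of no difference.

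Sptbn1, which encodes beta-II spectrin, the beta subunit that pairs with alpha-II spectrin along axons, was above the bound on 2 of its 6 probe sets. On 1452143_at the signals were 1413.1, 1565.5, 1974.5 and 2139.8, and the level was 10.77 ± 0.002 (SD, n = 2 animals). The animals overlapped there after normalization. On 1419256_at the signals were 323.8, 229.2, 107.6 and 348.2, with a level of 7.84 ± 0.74, and sample 2-1 stood apart as the lowest. The annotation lists the same sequence record for 1419255_at, yet its signals of 16, 19, 18.6 and 31.8 all fell short of the bound. The remaining probe sets of Sptbn1, 1444089_at, 1451830_a_at and 1441507_at, had signals from 0.2 to 16.7 and passed on no array.

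Sptbn4 encodes beta-IV spectrin, the beta subunit of initial segments and nodes of Ranvier. Its only probe set, 1425116_a_at, had signals of 19.5, 34.6, 52.9 and 100.6. Sample 2-2 alone passed its bound, with a normalized log2 signal of 6.22, against 4.46, 5.35 and 5.61 in samples 1-1, 1-2 and 2-1. Both samples of animal 2 were above both of animal 1, as deposited and after normalization, but the probe set passed on too few arrays to be tested. With the bound at the 90th percentile it passed on all 4 arrays.

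Ank1 encodes ankyrin-R, known from the red blood cell membrane, and mice that lack it lose Purkinje cells as they age. On 1419421_at its signals were 1834.3, 1646.6, 2686.5 and 2730.3, with a level of 11.08 ± 0.14 (SD, n = 2 animals). The animals did not overlap as deposited and overlapped after normalization. The other 3 probe sets of Ank1, 1443291_at, 1425677_a_at and 1452512_a_at, had signals from 0.2 to 16.9 and passed on no array. Red blood cell markers were looked at because ankyrin-R is abundant in those cells. Of 9 listed markers, 7 had a probe set with exactly 1 matching symbol, and none of these passed the bound on any array. Their summed deposited signal ran from 29.4 to 56.5, and the haemoglobin gene Hba-a1, on 1453574_at, had signals of 10.8, 0.6, 9.5 and 0.9. Sptb, a spectrin gene known from red blood cells that was not among these markers, passed on 3 arrays. The part of blood in the signal of Ank1 was not tested.

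Ank2 encodes ankyrin-B, which is spread along axons and also binds ion exchangers and pumps. On 1434265_s_at its signals were 160.3, 147.8, 182.9 and 177.8, and on 1434264_at they were 151.8, 107.6, 137.2 and 159.3. The levels were 7.37 ± 0.25 and 7.10 ± 0.26 (SD, n = 2 animals). The annotation lists 1 sequence record for both probe sets, and on both the normalized values of animal 2 lay below those of animal 1 without overlap. As deposited, the animals overlapped on 1434264_at, and on 1434265_s_at animal 2 was the higher. The 4 other probe sets of Ank2 had signals from 0.4 to 13 and were below the bound on every array.

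Ank3 encodes ankyrin-G, the organizer of the initial segment. On 1452124_at its signals were 282.6, 262.3, 387.1 and 333.6, with a level of 8.29 ± 0.10 (SD, n = 2 animals). On 1451628_a_at they were 100, 113.4, 152.2 and 294.2, with a level of 7.23 ± 0.29 and sample 2-2 as the highest. On both probe sets the animals overlapped after normalization. On 1452872_at the signals were 102.3, 152.6, 14.9 and 159.7, so that 3 samples passed the bound and sample 2-1, at a normalized log2 signal of 3.91, did not. The level there was 6.33 ± 1.32, the largest SD among the 14 probe sets of these genes that were tested between the animals. The other 3 probe sets of Ank3 had signals from 1.2 to 45.6 and passed on no array. Among them, 1425202_a_at shares its annotated sequence record with 1451628_a_at.

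Nfasc encodes neurofascin, which has a neuronal form at initial segments and nodes and a glial form beside the nodes. The sources used here do not say which form each probe set measures. On 1436205_at its signals were 141.5, 115.5, 98.6 and 123.2, with a level of 6.89 ± 0.56 (SD, n = 2 animals). After normalization animal 2 lay below animal 1 without overlap, and as deposited the animals overlapped. On 1456068_at the signals were 55.9, 59, 107 and 80.3, with a level of 6.19 ± 0.08, close to the bound of each array. The third probe set, 1459357_at, had signals from 0.8 to 28 and was below the bound on every array.

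Nrcam encodes NrCAM, a relative of neurofascin that is found with it at initial segments and nodes. On 1430583_at its signals were 496.3, 513.8, 904.6 and 1071, with a level of 9.47 ± 0.33 (SD, n = 2 animals). Animal 2 was above animal 1 on both scales, and within each animal the normalized samples differed by at most 0.011. On 1434709_at the signals were 591.5, 628.5, 737.6 and 742.5, with a level of 9.39 ± 0.15, and there the normalized values of animal 2 lay below those of animal 1. The 2 other probe sets, 1443281_at and 1458833_at, had signals from 0.4 to 30.7 and passed on no array. On both, animal 2 was below animal 1 on either scale, but probe sets below the bound on every array were not tested. Such probe sets of Ank1 went both ways on both scales, with animal 2 lower on 1425677_a_at and higher on 1452512_a_at.

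Of the 7 genes with several probe sets, 6 had a probe set above the bound on all 4 arrays and another above it on none. Over all genes with several probe sets of which 1 or more passed on all 4 arrays, 70.9% of 3791 had another that passed on none. The 4 pairs of probe sets with a shared sequence record, named above, fell on the same side of the bound in 2 cases, for Sptan1 and Ank2, and on different sides for Sptbn1 and Ank3. Over all genes 72.8% of 5219 such pairs fell on the same side, against 72.1% of 20112 pairs of a gene with different records. Probe sets of a gene can lie in different exons or in rare transcripts, and the sources used here do not give their positions. A statement that a gene lay above background therefore belongs to the probe sets named.

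The spread between samples of these genes was set beside that of the array. For the 13 probe sets that passed on all 4 arrays, the median gap on the log2 scale was 0.14 between the samples of animal 1 and 0.25 between those of animal 2. Over all 7882 such probe sets the medians were 0.22 and 0.36. The pair of animal 2 was the wider one for 10 of the 13, against 64.9% of all. The widest gaps belonged to Sptbn1 on 1419256_at, where the samples of animal 2 differed by 1.44, and to Ank3 on 1451628_a_at and Nfasc on 1456068_at, where both pairs of animal 2 differed by 0.70. Sample 2-1 was the lowest by over 1 on the log2 scale for 2 of the 14 tested probe sets, 1419256_at of Sptbn1 and 1452872_at of Ank3. The same held for 5.92% of 11098 probe sets tested, against 4.73% for sample 2-2 and at most 1.51% for a sample of animal 1.

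The next comparison asked whether these genes differed between the 2 untreated animals. None of the 14 probe sets tested was called, either higher or lower in animal 2, at a false discovery rate of 0.05 (limma with Benjamini-Hochberg adjustment over 11098 probe sets, of which 35, or 0.315%, were called). Adjusted p-values of the 14 ran from 0.263 to 0.993. At an unadjusted p under 0.05 there were 2 of 14 (14.3%), against 17.5% of all tested. The fit had 2 residual degrees of freedom for each probe set, and limma also drew on the spread of the other probe sets. Its intervals rest on both, and they were wide for the dimmer probe sets.

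Among positive differences, animal 2 less animal 1, that of Nrcam on 1430583_at had the smallest p, at 0.47 ± 0.19 in log2 units (SE, adjusted p = 0.263 by limma, 2 samples in each animal), with a 95% interval from 0.03 to 0.92. Sptan1 on 1427889_at followed at 0.22 ± 0.09 (adjusted p = 0.284, limma). Ank1 on 1419421_at stood at 0.20 ± 0.13 (adjusted p = 0.487, limma), with a 95% interval from -0.12 to 0.51. Among negative differences the smallest p belonged to Sptan1 on 1427888_a_at, at -0.15 ± 0.06 (adjusted p = 0.296, limma). Nfasc on 1436205_at stood at -0.79 ± 0.37 (adjusted p = 0.328, limma), with a 95% interval from -1.68 to 0.09. Sptbn1 on 1419256_at stood at -1.04 ± 0.51 (adjusted p = 0.347, limma), with a 95% interval from -2.26 to 0.17.

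The remaining differences belonged to probe sets that did not pass either. Ank3 on 1452872_at stood at -1.86 ± 0.94 (adjusted p = 0.360, limma), and its other tested probe sets at -0.14 ± 0.30 and 0.41 ± 0.38. Those of Ank2 stood at -0.36 ± 0.33 and -0.37 ± 0.37, that of Sptbn1 on 1452143_at at 0.003 ± 0.13, and those of Nfasc on 1456068_at and Nrcam on 1434709_at at 0.11 ± 0.50 and -0.21 ± 0.21. Within each of Sptan1, Sptbn1, Ank3, Nfasc and Nrcam the tested probe sets had differences of both signs. Some of these differences, such as 0.003 ± 0.13 for Sptbn1 and 0.11 ± 0.50 for Nfasc, were smaller than their SE. Without sample 2-2, so that animal 2 was represented by sample 2-1 alone, 2 probe sets were called lower in animal 2. They were Ank3 on 1452872_at (-3.31 ± 0.49, adjusted p = 0.0201, limma) and Sptbn1 on 1419256_at (-1.77 ± 0.35, adjusted p = 0.0286, limma), the same 2 that were lowest in sample 2-1. In that fit 1015 probe sets, or 9.98% of all tested, were called. Without sample 2-1 the same differences were -0.37 ± 0.39 (adjusted p = 0.573, limma) for Ank3 and -0.32 ± 0.32 (adjusted p = 0.547, limma) for Sptbn1, so their size rested on that sample.

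The direction of small differences depended on the scale. After normalization the median difference was -0.14 over the 14 probe sets and -0.05 over all tested, and on deposited signals it was 0.37 and 0.48. After normalization the animals did not overlap for 9 of the 14 probe sets, 2 with animal 2 higher and 7 with animal 2 lower, against 23.6% and 25.5% of all tested. As deposited, 10 of the 14 had animal 2 higher without overlap and 0 lower, against 51.2% and 7.36% of all tested. Nrcam on 1430583_at and Sptan1 on 1427889_at were the only probe sets of the 14 that were higher in animal 2 without overlap on both scales, and neither passed the test.

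**Figure D2:**
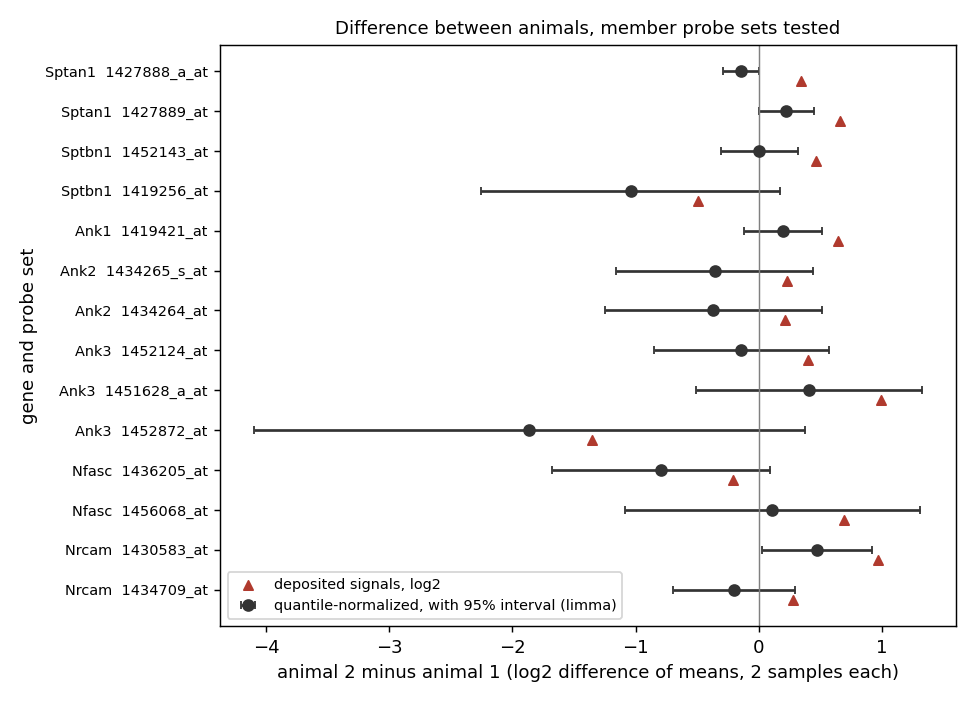
Difference of animal 2 less animal 1 (horizontal axis, log2) for the 14 tested probe sets of the 8 genes (vertical axis), as circles with 95% intervals from limma on normalized values and as triangles on deposited signals. No circle belongs to a called probe set, and every triangle lies to the right of its circle.

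Other genes of the spectrin lattice and the initial segment came from a list of 67 genes, of which 56 were matched to a probe set with 1 symbol. By their brightest probe set 33 of 56 (58.9%) passed on all 4 arrays, 13 passed on no array and 10 passed on some, against 28.4% of all named genes on all 4. With the median over the probe sets of a gene the count was 14 of 56, against 2935 of all 18193 named genes. Levels below are for the brightest probe set and carry SDs over 2 animals.

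Channels of the initial segment and their partners passed on all 4 arrays in 9 of 12 cases. Scn2b, a sodium channel beta subunit, was at 10.79 ± 0.06 (SD, n = 2 animals) and Scn1a, a pore-forming subunit, at 10.65 ± 0.03. Scn2a passed on 2 arrays, the intracellular partner Fgf13 on 1, and the potassium channel gene Kcnq3 on none.

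Genes of the junctions between spectrin and actin passed in 6 of 12 cases. The actin genes Actg1 and Actb were at 11.96 ± 0.04 and 9.98 ± 0.24 (SD, n = 2 animals). The adducin genes Add1 and Add3, whose proteins cap actin filaments and bind spectrin to them, passed as well, and Add2 passed on no array. Of the other spectrin genes only Sptb, the beta subunit known from red blood cells, was matched. Its brightest probe set, 1455226_at, had signals of 35.8, 71.6, 59.5 and 140.4 and passed on 3 arrays, at a level of 6.09 ± 0.21. Listed genes without a match were not analysed here.

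Adhesion and matrix partners passed in 5 of 10 cases, among them Cntn1, contactin, at 10.002 ± 0.176 and Bcan, brevican, at 8.67 ± 0.17 (SD, n = 2 animals). L1cam and Chl1, relatives of neurofascin and NrCAM, passed too. Cntnap1, Cntn2, Tnr, Vcan and Hapln2 passed on no array. Cntnap2, with signals of 433.4, 415.4, 306.9 and 347.4, passed on all 4 arrays, so the Cntnap genes of the list fell on both sides of the bound. Microtubule partners passed in 5 of 9 cases, with Camsap2, a protein of microtubule minus ends, at 10.75 ± 0.02 and the dynein partner Ndel1 at 9.64 ± 0.57. Trim46, which bundles microtubules of the initial segment, passed on no array.

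Genes listed under other membrane partners of ankyrins passed in 4 of 6 cases. Among them Atp1b1, which encodes a beta subunit of the sodium pump, was at 12.73 ± 0.09 (SD, n = 2 animals). The sodium-calcium exchanger Slc8a1 was at 8.53 ± 1.13. Slc4a1, the anion exchanger that ankyrin-R binds in red blood cells, passed on no array. Kinases and proteases that act on the complex passed in 4 of 6 cases. Csnk2a1, a catalytic subunit of casein kinase 2, which phosphorylates sodium channels where ankyrin-G binds, was at 8.41 ± 0.13. Capn2, a calpain that cuts spectrin, was at 8.26 ± 0.03, and Capn1 passed on no array.

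**Figure D3:**
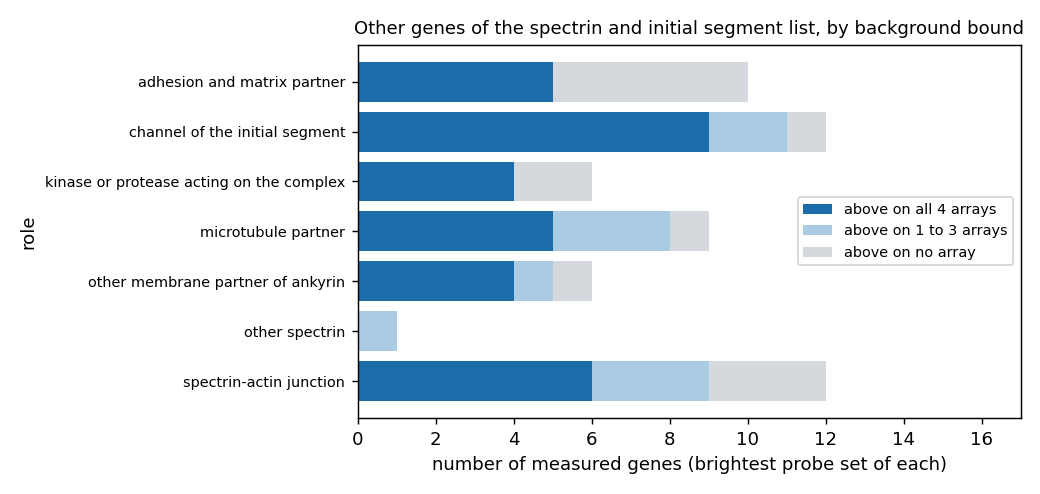
Number of measured genes (horizontal axis) in each role of the list (vertical axis), split by whether the brightest probe set lay above the bound on all 4 arrays, on 1 to 3 or on none. Channels of the initial segment have the longest dark bar, at 9 of 12 genes, and the only matched gene among other spectrins, Sptb, passed on 3 arrays.

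Between the animals, 2 of 76 tested probe sets of this list were called, both of Atp1b1 and both higher in animal 2, against 0.216% of all tested called higher and 0.0991% called lower. The median difference of the 76 was 0.003, with 38 above and 38 below 0, and 15 of the 76 had an unadjusted p under 0.05, against 17.5% of all tested. On 1418453_a_at, Atp1b1 had signals of 585.2, 619.3, 2983.9 and 3422.1 and a difference of 1.96 ± 0.13 (SE, limma, adjusted p = 0.00926). On 1439036_a_at it had signals of 3679.2, 4274.2, 9440.8 and 11384.2 and a difference of 0.96 ± 0.10 (adjusted p = 0.0375, limma). Neither was called without sample 1-2, when animal 1 had 1 sample left and calls fell over the whole array. Its brightest probe set, 1423890_x_at, stood at 0.13 ± 0.07 (adjusted p = 0.418, limma), and 1451152_a_at at 0.06 ± 0.06, so the probe sets of this gene did not give the same result.

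Markers checked the labelled cell type and the presence of other cells. All 13 measured Purkinje cell markers passed the bound on all 4 arrays, and their mean normalized log2 signal ran from 11.26 to 11.49 over the samples. Bergmann glia and astrocyte markers passed on all 4 arrays in 10 of 12 cases and granule cell markers in 5 of 11. For oligodendrocyte markers it was 4 of 11, for interneuron markers 2 of 9, for vessel markers 1 of 10 and for microglia markers 1 of 8. The granule cell gene Gabra6 and the glial gene Gja1 passed on all 4 arrays, while the granule cell gene Slc17a7, with signals from 1 to 9, passed on none. Myelin genes fell on both sides of the bound. Mog, with signals from 0.3 to 8.7, passed on no array. Cnp, with signals from 2312.3 to 2948.2, and Mbp, with signals from 858.4 to 1421.6, passed on all 4. The 8 genes studied here are used by many kinds of neurons and glia, and in captured tissue fewer cells of a type and less RNA per cell cannot be told apart.

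Some of these lists moved with the animals. The mean log2 signal of the granule cell list was 6.40 and 6.95 in animal 1 and 5.90 and 5.44 in animal 2, and its summed deposited signal was 3577.7 and 4541.8 against 2244.6 and 2755.2. The oligodendrocyte list was at 5.49 and 5.74 against 4.98 and 4.85, with summed deposited signals of 4631.9 and 4524.8 against 5010.2 and 4485.7. Of its markers above the bound on all 4 arrays, Cnp and Ugt8a had lower mean log2 signals in animal 2, and Mbp and Olig1 higher ones. A list mean weighs genes below the bound like those above it. The vessel list was at 3.47 and 4.04 against 2.85 and 2.91, below the bound throughout, with sums from 300.8 to 373.3 in animal 1 and from 218.7 to 266.4 in animal 2. The Bergmann glia list was at 8.98 and 8.82 against 8.70 and 8.60, with sums from 12018.8 to 12050.5 and from 12603.2 to 13495.9. The Purkinje cell list was at 11.26 and 11.32 against 11.49 and 11.45, with sums from 63531.3 to 65154.3 and from 91056.9 to 98381.7. The interneuron list was at 5.015 and 4.999 against 4.86 and 4.80, with sums of 624.9 and 588.4 against 622.1 and 748.3. The microglia list, below the bound throughout, was at 1.95 and 2.13 against 2.62 and 2.73, with sums from 188.3 to 224.3 and from 159.9 to 216.9. Its only marker above the bound on all 4 arrays, Csf1r, went the other way, at 7.66 in animal 1 and 6.21 in animal 2. C1qb, above the bound on 2 arrays, was higher in animal 2. The part of these lists in the differences of Nfasc, Nrcam and the other genes between the animals was not tested.

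**Figure D4:**
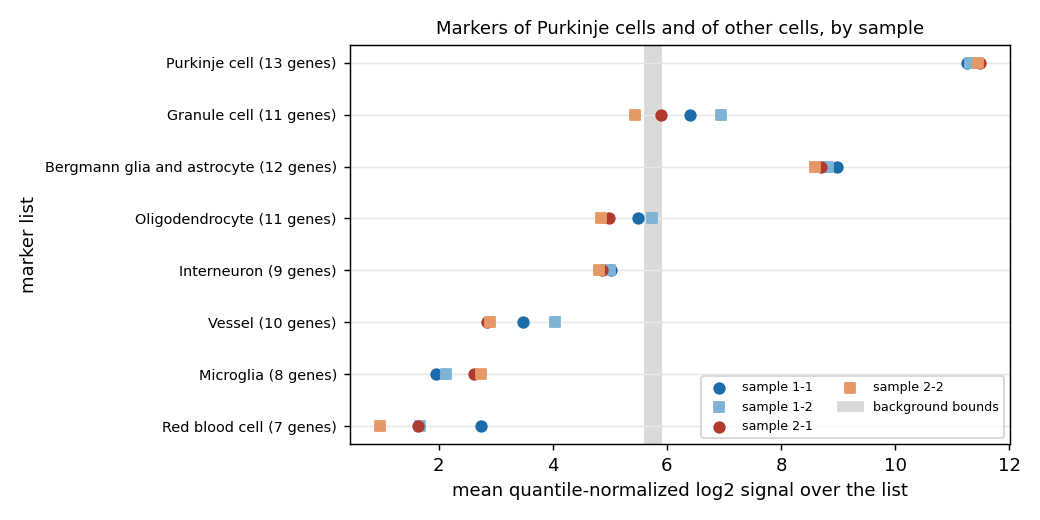
Mean normalized log2 signal over the measured genes of each marker list (horizontal axis) in each of the 4 samples (points), with the bounds of the arrays as a grey band. The Purkinje cell list lies between 11.26 and 11.49 in every sample, and in the granule cell list both samples of animal 2 lie to the left of both samples of animal 1.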

How the data were processed

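Per the submitters' processing notes the authors used GCOS, and each probe set has 1 deposited linear intensity per array. The sources used here give no signal algorithm, scaling or detection calls. The table held 45101 probe sets, 64 of them controls, which were left out. Median signals of the arrays were 8.4 to 11.4. No columns of other samples were present (0). The number of arrays limits the precision.

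Gene names came from the platform annotation (34945 probe sets with 1 symbol), and symbols of the 8 genes matched RefSeq names. Signals were floored at 0.1, log2 was taken, and arrays were quantile-normalized, because their trimmed means differed by 47.7%, over a limit of 5%. Bounds used 87 of 95 listed background genes, a list other than those of earlier work on these data. Animals were compared with lmFit and eBayes with a trend (limma 3.58.1, R 4.3.3), keeping probe sets that passed the bound on at least 2 arrays, and the steps were tested on simulated data. Members and lists were chosen with earlier results of these data known. Named were all probe sets of the 8 genes and, of the other list, the 2 genes of each role with the brightest probe set (a rule for naming, not a comparison of levels), all other spectrins and all called probe sets. Others were named after their values were seen. Sequences were not printed, since the arrays bear on no promoter. Alternatives were other bounds, normalizations, filters, no trend, an offset of 16 and leaving out each sample.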

Additional observations from a re-analysis of the deposited data

Results flagged for a closer look

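Sets of 4 samples were searched for 1 value far from the rest, over the 32 probe sets of the 8 genes and the brightest probe sets of the 56 other genes. Of these 88, 5 stood out by Dixon's criterion for 4 values, none of them of the 8 genes, and chance alone gives about 1 in 20. On the normalized log2 scale, sample 2-1 was the lowest for Tmod1 at 5.38, against 6.18 to 6.28 in the others. Sample 2-1 was the highest for L1cam at 7.20, against 6.25 to 6.35. Sample 2-2 was the lowest for Actb at 9.38, against 10.10 to 10.24. Sample 1-2 was the highest for Capn2 at 8.34, against 8.22 to 8.24. Sample 1-1 was the lowest for Capn1 at 1.16, against 3.83 to 4.36, all below the bound.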

How the results depend on the processing

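The count of probe sets of the 8 genes above the bound was 9 to 14 under every alternative run, against 13. It was 9 at the 99th percentile and 14 at the 90th. Over all probe sets that are not controls, the counts were 5390 and 11799, against 7882. None of these probe sets was called between the animals under the alternatives run, except 2 without sample 2-2, so that leaving out 1 sample gave 0 to 2. Calls among the tested probe sets of the other list, 2 of 76 at first, numbered 10 of 76 on deposited values (13.2%, against 5.34% of all tested). With the bound at the 99th percentile they numbered 3 of 55 (5.45%, against 1.73%). With no filter on dim probe sets there was 1 of 176 (0.568%, against 0.0111%). Without the trend there were 0, and 0 of all 11098 tested. With 1 sample left out, calls of the list and of the whole array fell without sample 1-2 and rose without 2-1 or 2-2. Without sample 1-1, calls fell over the whole array but not in the list. Genes of the other list above the bound numbered 14 of 56 with the median over probe sets, against 2935 of all 18193 named genes. On deposited values, where all differences shift upward, the sign turned for Ank2 (0.21 on 1434264_at and 0.23 on 1434265_s_at), Ank3 on 1452124_at (0.40), Nrcam on 1434709_at (0.28) and Sptan1 on 1427888_a_at (0.34). With arrays scaled to 1 trimmed mean it turned for Sptbn1 on 1452143_at (-0.033). With 1 sample left out, signs turned for that probe set (-0.070 to 0.081, with -0.069 without sample 1-1), for Ank3 on 1452124_at (-0.39 to 0.11) and for Nfasc on 1456068_at (-0.24 to 0.46). Without a turn of sign, but by over 1.5 times, leaving out 1 sample moved Ank1 on 1419421_at (0.08 to 0.33), Ank2 (-0.62 to -0.12 on 1434264_at and -0.52 to -0.20 on 1434265_s_at), Ank3 on 1451628_a_at (0.06 to 0.76) and 1452872_at (-3.31 to -0.37), Nrcam on 1434709_at (-0.35 to -0.06), Sptan1 on 1427888_a_at (-0.20 to -0.08) and Sptbn1 on 1419256_at (-1.77 to -0.32), with no call except those without sample 2-2 given above. With 1 sample left out, the lone sample of an animal is assumed to vary like the other animal's pair; for the calls that changed, the cause was not tested. Signal near background limits the probe sets of Sptbn4, Nfasc and Ank2, and in sample 2-1 that of Ank3 on 1452872_at. The passing probe sets of Nfasc and Ank2 were lost with the bound at the 99th percentile.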
